A study of Mus musculus with 8 samples.

Results

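The TCF/LEF factors, the Groucho corepressors and beta-catenin were followed as 9 genes (Tcf7, Lef1, Tcf7l1, Tcf7l2, Tle1, Tle2, Tle3, Tle4 and Ctnnb1), chosen by name and found in all 8 count files, among 30731 genes present in both gene tables. RNA-seq libraries had been made from total RNA of 2 mouse cell lines, with 2 libraries in each of 4 groups. NIH-3T3, an embryonic fibroblast line, was measured with TCF-1 induced (genotype given as Tcf7 induced) and as normal, untreated cells given as wild type. Scid.adh, a thymic lymphoma line used as a model of DN3 thymocytes (a double-negative stage of early T cell precursors), was measured with a Tcf7 knockout (genotype Tcf7-/-) and with an empty vector, given as wild type. The series asked how TCF-1 reorganises the folding of the genome. Per the file headers, all 4 libraries of 3T3 were named with 72 hours, cas9, empty, LRG21, pIND21 and P33, words the labels do not explain, and only the 2 induced ones with dox. The normal cells thus share those words although their labels read untreated and wild type. In 3T3, doxycycline and TCF-1 cannot be told apart. The labels give neither the promoter of the induced gene nor whether a line is 1 clone. They also leave unsaid whether paired libraries are separate cultures; p-values here cover library-to-library spread alone, possibly a technical one.

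TCF-1, LEF-1, TCF7L1 and TCF7L2 are HMG-box proteins that bind the same short DNA motif and bend the DNA there. Their effect depends on partners: beta-catenin, when Wnt signals stop its destruction, binds their N-terminal end and recruits coactivators, while Groucho proteins (TLE in mammals) bind them and bring histone deacetylases that silence the gene. In thymocytes TCF-1 and LEF-1 are the family members known to act, and TCF-1 is required for early T cell development. Tcf7 also makes shorter proteins that lack the beta-catenin-binding end, and counts per gene do not separate these forms.

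Total counts over genes were 13850213 to 17523677 in 3T3 and 7740198 to 10392402 in Scid.adh. The lines matched their labels: 8 DN3 thymocyte markers (Cd3e, Cd3g, Cd3d, Ptcra, Il2ra, Rag1, Lck and Bcl11b) summed to 3110 and 3202 CPM in knockout and 4098 and 4036 CPM in empty-vector Scid.adh, against 8.49 to 9.75 CPM over the 3T3 libraries. Fibroblast markers (6 genes) summed to 24860 to 27640 CPM in 3T3 and to 8.98 to 123 CPM in Scid.adh, where the higher sums were nearly all Pdgfrb in the empty-vector libraries. Summed B cell and macrophage markers stayed at or under 10.4 CPM in every library. The 2 knockout libraries differed from each other more than the other pairs did, with a chi-square per degree of freedom of 6.90 over genes, against 1.19 to 2.05 in the other 3 groups. CPM here are the usual depth-scaled counts, taken over genes in both tables, with library sizes adjusted by TMM (a scaling between libraries) across all 8 libraries. Intervals for ratios come from counts pooled over the 2 libraries of a group, so they cover counting error only and leave out library-to-library spread. No molecular identifiers are named in the labels, so repeat copies of a molecule may make that error larger than given.

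Tcf7, the manipulated gene, followed the labels in every library but was not lost from the knockout. It lies on the minus strand of chromosome 11 (52252371 to 52283014, GRCm38). It stood at 991 and 1019 CPM in induced 3T3 cells, against 15.4 and 15.6 CPM in normal cells. Knockout Scid.adh cells held 624 and 598 CPM, against 1291 and 1292 CPM with the empty vector. The groups did not overlap in either line, and the order of levels was empty-vector Scid.adh, induced 3T3, knockout Scid.adh and normal 3T3, with no overlap between neighbours. The change was 6.04 on the log2 scale in 3T3 (SE 0.05) and -1.06 in Scid.adh (SE 0.06), so the knockout libraries held Tcf7 transcripts at a level 2.08-fold lower than the empty vector. In bulk libraries, fewer cells with a transcript and less of it per cell cannot be told apart, and neither can transcripts of the introduced and the resident Tcf7 copies. Counts per gene also do not show whether the Tcf7 transcripts left in the knockout encode TCF-1 protein. Against the 500 tested genes nearest in level in Scid.adh, the log2 change of Tcf7 on knockout lay below that of all but 0.4%.

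Counting Tcf7, 7 of the 9 genes passed the test in induced 3T3 cells (edgeR quasi-likelihood test, adjusted p under 0.05 over all tested genes), 3 higher and 4 lower. Of all 18185 genes tested there, 36.8% passed, 18.5% higher and 18.3% lower. In knockout Scid.adh cells 6 of 9 passed, 4 higher and 2 lower, against 31.5% of 11941 tested genes, 15.6% higher and 15.9% lower. The even split in Scid.adh depended on the scaling, with 1861 genes higher and 1899 lower under TMM and 2455 and 1215 with upper-quartile factors. Without empty-vector library 1 the numbers were 1059 and 1162, and without empty-vector library 2 they were 1180 and 1198. The median log2 change of the 9 genes was 0.03 in 3T3 and 0.01 in Scid.adh, close to the medians over all tested genes of 0.00 and -0.00. All 9 genes passed the filter on low counts in both lines, Tcf7l1 in Scid.adh through the knockout libraries alone.

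**Figure D1:**
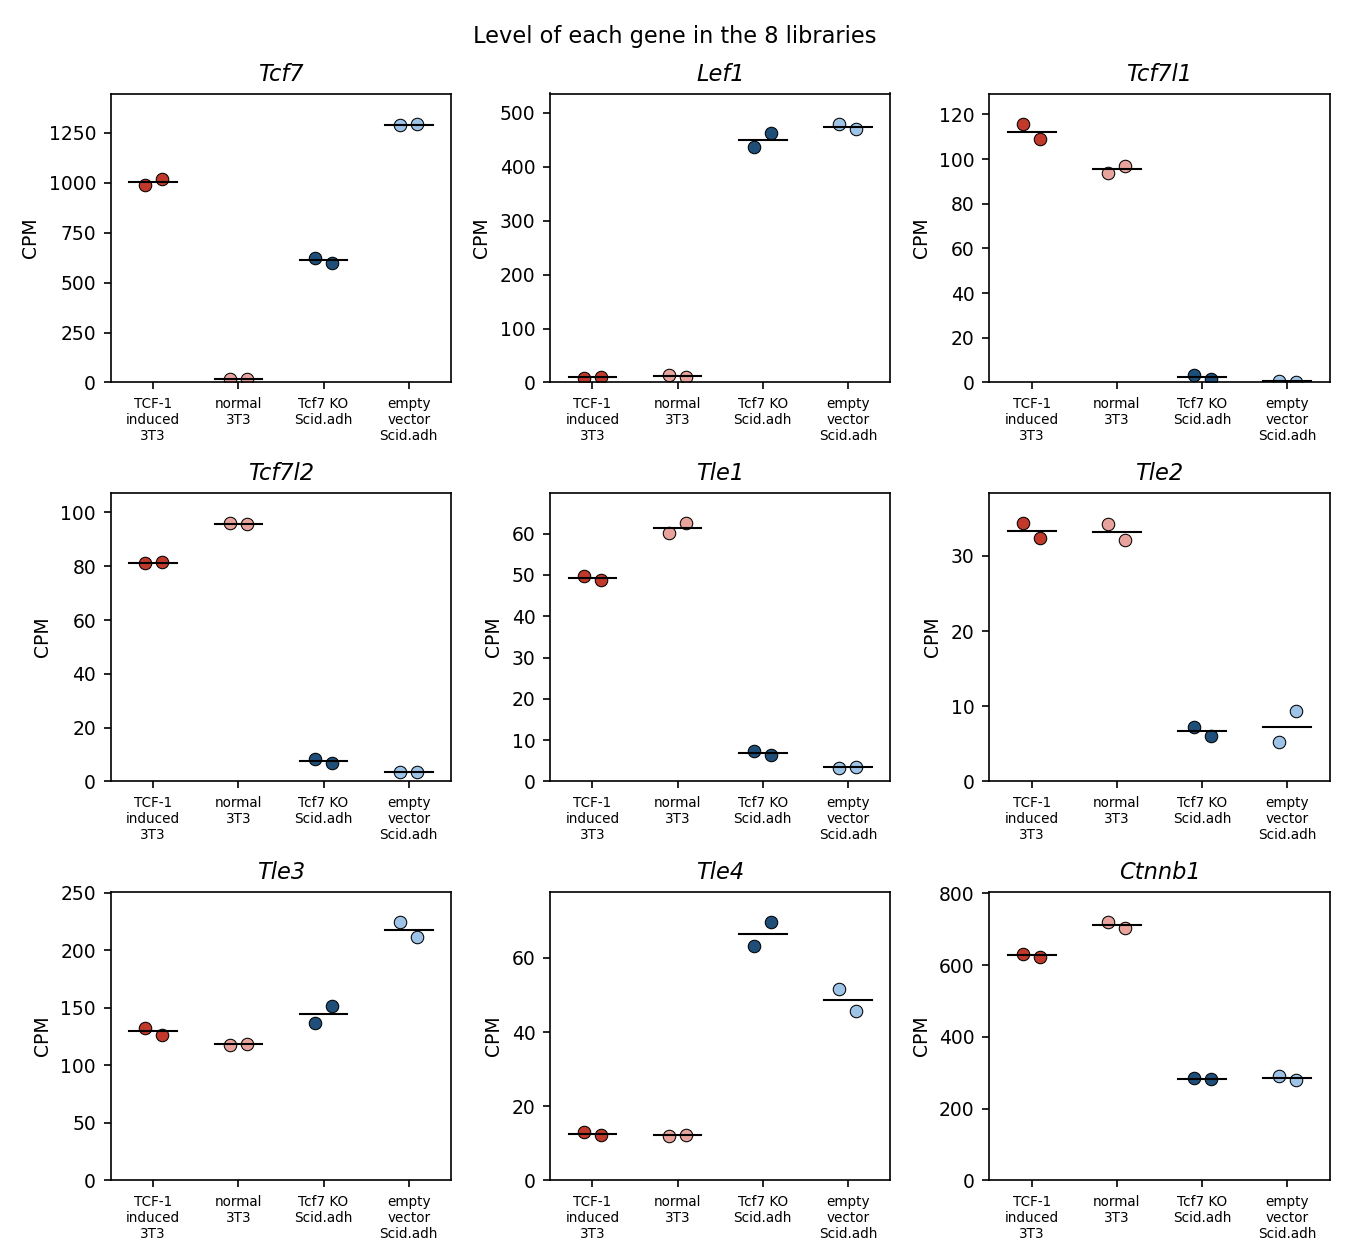
Level of each of the 9 genes in CPM (y axis, linear from 0, own scale per panel) in the 8 libraries; points are libraries and horizontal lines the mean of 2. Tcf7 stood high in Scid.adh and in induced 3T3, Lef1 in Scid.adh, and Tcf7l1, Tcf7l2, Tle1, Tle2 and Ctnnb1 in 3T3.

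Lef1 encodes LEF-1, the closest partner of TCF-1 in thymocytes. It lies on the plus strand of chromosome 3 (131110471 to 131224356). Its level was 436 and 463 CPM in the knockout, against 478 and 470 CPM with the empty vector. Both knockout libraries lay below both empty-vector ones by a small margin, and the change of -0.05 (SE 0.06) did not pass (edgeR adjusted p = 0.536). Its direction turned with upper-quartile scaling (0.03), and it passed downward without knockout library 2 (-0.10, edgeR adjusted p = 0.0374). In 3T3 Lef1 was a minor transcript, at 8.39 and 10.3 CPM in induced and 13.7 and 11.1 CPM in normal cells. The induced libraries lay lower, a fall of 0.39 on the log2 scale (SE 0.13, edgeR adjusted p = 0.0123). It did not pass without normal library 1 (-0.23), without induced library 1 (-0.24) and in DESeq2 (-0.39, adjusted p = 0.177). Of the 500 genes nearest in level in 3T3, 15.6% passed downward and 10.8% had a lower log2 change than Lef1. An antisense gene, Gm43352, covers 1208 of the 8788 exon bases of Lef1, and with the strand setting of the counting not given, reads there are uncertain. Gm43352 itself held 28 and 25 counts in induced and 35 and 58 in normal 3T3 libraries. In Scid.adh it held 126 and 142 counts in the knockout and 119 and 111 with the empty vector.

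Tcf7l1, which in embryonic stem cells and skin acts mainly as a repressor, held the largest share of TCF/LEF transcripts per kb of exon in normal fibroblasts; in CPM it stood level with Tcf7l2 there. It lies on the minus strand of chromosome 6 (72626378 to 72789254). It rose to 115 and 109 CPM in induced cells, against 93.9 and 96.8 CPM in normal cells (log2 fold change 0.25, SE 0.05, edgeR adjusted p = 3.91e-05). Of the 500 genes nearest in level in 3T3, 27.2% passed upward and 88.2% had a lower log2 change than Tcf7l1. In Scid.adh Tcf7l1 was near the detection limit, with 29 and 14 counts in the knockout and 7 and 4 counts with the empty vector. Both knockout libraries lay above both empty-vector ones. Tcf7l1 passed the filter on low counts there through the knockout alone, so its call comes from the group where it was high. The ratio of scaled counts, knockout over empty vector, was 4.46, with a 95% counting interval of 2.26 to 9.59 from exact binomial bounds (fitted log2 fold change 2.16, SE 0.52, edgeR adjusted p = 0.0072). Without knockout library 1 the call was lost (1.51, edgeR adjusted p = 0.0943). Tcf7l1 was the one gene of the 9 that rose in both comparisons, at very different levels.

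Tcf7l2, the family member best known as the Wnt effector of intestinal stem cells, moved against Tcf7 in both lines. It lies on the plus strand of chromosome 19 (55741820 to 55933654). It stood at 81.2 and 81.4 CPM in induced fibroblasts, against 95.9 and 95.7 CPM in normal ones, a fall of 0.22 on the log2 scale (SE 0.05, edgeR adjusted p = 5.37e-04). With 2 libraries a group, the close values within each group do not measure the spread. Of the 500 genes nearest in level in 3T3, 32.6% passed downward and 24% had a lower log2 change than Tcf7l2. In the knockout Tcf7l2 stood at 8.34 and 6.93 CPM (71 and 61 counts), against 3.36 and 3.64 CPM with the empty vector (34 and 35 counts). The groups did not overlap, and the log2 fold change was 1.15 (SE 0.26, edgeR adjusted p = 0.00508), with a counting interval of 1.62 to 2.96 for the ratio.

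The 3 genes that rose at low levels in the knockout, Tcf7l1, Tcf7l2 and Tle1, did so beside a general shift of low transcripts. Of 2939 tested genes with a mean under 5 CPM in Scid.adh, where Tcf7l1 lay, 31.7% passed upward and 4.59% downward, with a median log2 change of 0.56. Genes this low can pass the filter on low counts through the group where they are high, as Tcf7l1 did. These values, and the rank of Tcf7l1 among genes of like level, are therefore no neutral background. Of 972 genes from 5 to 10 CPM, where Tcf7l2 and Tle1 lay, 17.7% passed upward and 8.64% downward, with a median of 0.12. Of 4548 genes at 50 CPM or more, 8.55% passed upward and 27.9% downward, with a median of -0.09. Among the 500 genes nearest in level, the median change was 0.66 around Tcf7l1, 0.18 around Tcf7l2 and 0.21 around Tle1, and 92.4%, 89.8% and 86.4% of those genes lay below the named one. The knockout libraries held counts in 20406 and 20463 genes, against 18084 and 18041 with the empty vector, at lower total counts. Reads outside any gene made up 22.3% and 25.8% of all reads in the knockout, against 21.3% and 21.6% with the empty vector. The part of these differences in the rises of Tcf7l1, Tcf7l2 and Tle1 was not tested. Of the 6 fibroblast markers, Pdgfrb was lower in the knockout and the rest were at most 2.35 CPM there. Col1a1 stood at 1.76 and 1.59 CPM in the knockout (15 and 14 counts), against 0.395 and 0.312 CPM with the empty vector (4 and 3 counts). The ratio of mean CPM of Col1a1 over Tcf7l1 was 0.67 in the knockout and 0.64 with the empty vector, and 52.1 in normal 3T3 cells. Other ratios did not stay level. Col1a1 over Tcf7l2 was 0.22 in the knockout and 0.101 with the empty vector, and over Tle1 0.246 and 0.103. For Fn1 the values were 0.393 and 0.728 over Tcf7l1, 0.129 and 0.115 over Tcf7l2, and 0.144 and 0.117 over Tle1. All rest on few counts. The part of fibroblast-marker RNA in the rises of Tcf7l1, Tcf7l2 and Tle1 was not tested.

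**Figure D2:**
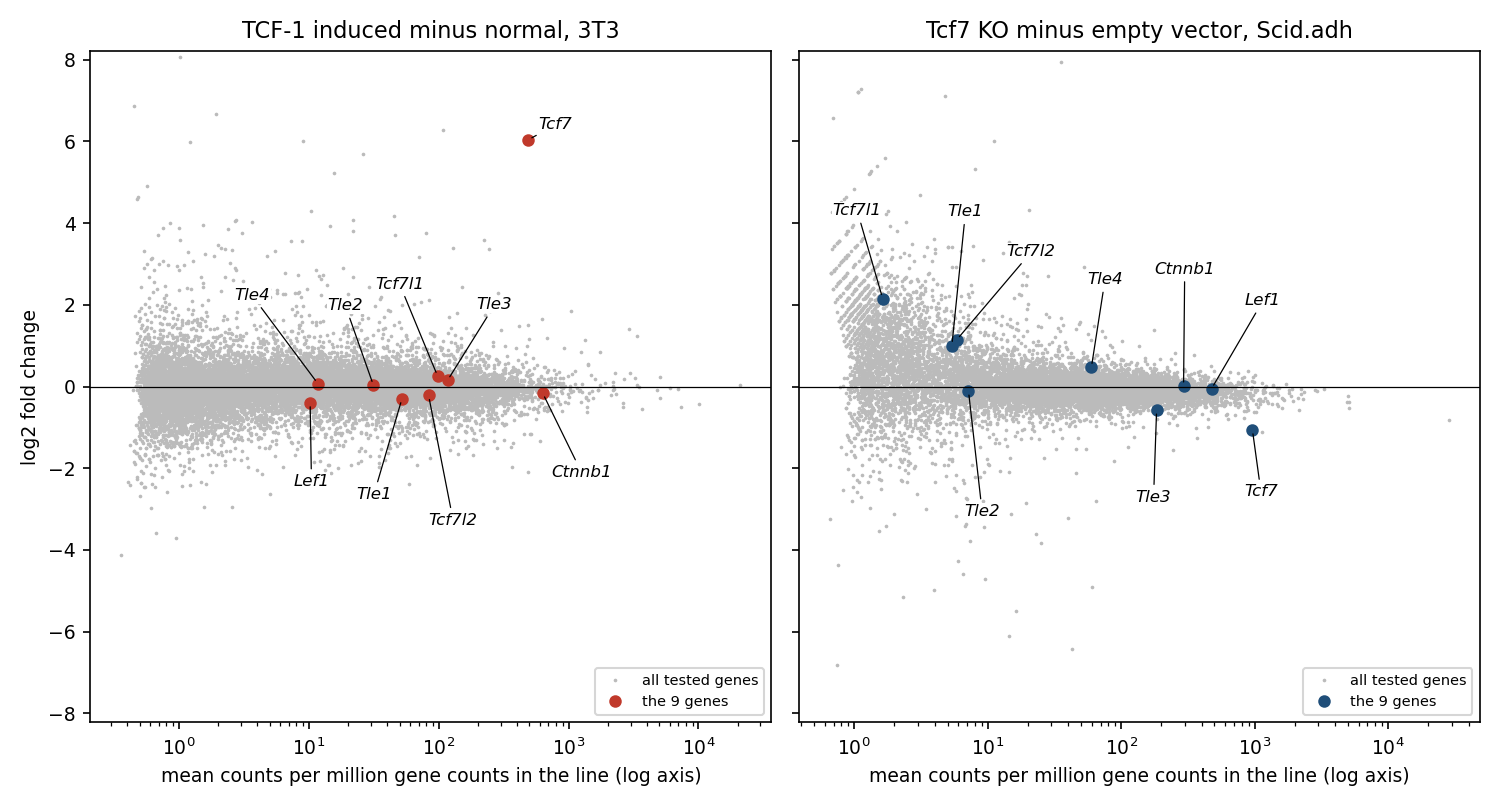
Log2 fold change (y axis) against mean level in CPM on a log axis (x axis) for all tested genes (grey) and the 9 genes (coloured), 3T3 on the left and Scid.adh on the right. In Scid.adh the grey cloud lies above 0 at low levels, where Tcf7l1, Tcf7l2 and Tle1 sit, and Tle3 and Tcf7 lie at its lower edge at high levels.

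Per length of exon, the make-up of the TCF/LEF family differed between lines and changed with the manipulation. Levels in this paragraph are CPM per kb of the gene's union exon length in GENCODE M21, which for an introduced Tcf7 copy may not be the true length. That length pools all annotated forms (2625 bases for Tcf7, 8788 for Lef1), may exceed the expressed transcript, and sets the shares. In CPM, without length, the knockout averaged 611 for Tcf7 and 449 for Lef1. The shares are of transcripts and not of protein. The 4 TCF/LEF genes summed to 417 and 426 CPM per kb in induced 3T3 cells, against 42.3 and 42.8 in normal cells. Tcf7 made up 90.5% and 91.1% of that sum in induced cells, against 13.8% and 13.9% in normal cells, in which Tcf7l1 made up 56.6% and 57.7% and Tcf7l2 25.8% and 25.5%. In Scid.adh the sum was 289 and 282 CPM per kb in the knockout, against 547 and 546 with the empty vector. Tcf7 still made up 82.2% and 80.9% of it in the knockout, against 89.9% and 90.1% with the empty vector, and nearly all the remainder was Lef1, at 17.1% and 18.7% against 9.95% and 9.79%. Tcf7l1 and Tcf7l2 each stayed at or under 0.329% of the family in the Scid.adh libraries. The sum of the 3 genes other than Tcf7 averaged 52.7 ± 1.74 CPM per kb in the knockout and 54.5 ± 0.731 with the empty vector (SD, n = 2), a gap about as wide as the spread in the knockout.

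Tle1 encodes a Groucho corepressor on chromosome 4 (72117142 to 72200919, minus strand). Like Tcf7l2, it moved against Tcf7 in both lines. It stood at 49.7 and 48.8 CPM in induced 3T3 cells, against 60.2 and 62.5 CPM in normal cells, a fall of 0.30 on the log2 scale (SE 0.06, edgeR adjusted p = 7.94e-05). Of the 500 genes nearest in level in 3T3, 25.4% passed downward and 10.8% had a lower log2 change than Tle1. The Scid.adh libraries held 7.28 and 6.37 CPM in the knockout, against 3.36 and 3.54 CPM with the empty vector. The groups did not overlap, and the rise of 1.00 (SE 0.26, edgeR adjusted p = 0.0109) was lost in DESeq2 (1.01, adjusted p = 0.0643) and without empty-vector library 1 (0.95, edgeR adjusted p = 0.0524).

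Tle2, a further Groucho corepressor gene on chromosome 10 (81574561 to 81590845, plus strand), did not pass in either line. Its libraries overlapped between groups, at 34.3 and 32.4 CPM in induced against 34.2 and 32.1 CPM in normal 3T3 cells, and at 7.28 and 6.02 CPM in knockout against 5.23 and 9.37 CPM in empty-vector Scid.adh cells. The log2 changes were 0.03 (SE 0.07) and -0.11 (SE 0.28), and both turned sign when single libraries were left out.

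Tle3 moved in the same direction as Tcf7 in both lines. It lies on the plus strand of chromosome 9 (61372366 to 61418497) and encodes a Groucho protein found in many tissues. It fell to 137 and 151 CPM in the knockout, against 224 and 211 CPM with the empty vector, a change of -0.57 on the log2 scale (SE 0.07, edgeR adjusted p = 1.12e-04). This call held in every alternative run, between -0.65 and -0.50 with a library left out, and 1.6% of the 500 genes nearest in level lay below it. In 3T3 it stood at 132 and 127 CPM in induced cells, against 118 and 118 CPM in normal cells, a change of 0.15 (SE 0.05, edgeR adjusted p = 0.00652). Of the 500 genes nearest in level in 3T3, 26.4% passed upward and 80.4% had a lower log2 change than Tle3. The rise in 3T3 was lost in DESeq2 (adjusted p = 0.0638), in the fit of all 8 libraries and without normal library 1 (edgeR adjusted p = 0.113) or normal library 2 (0.104).

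Tle4, the remaining Groucho corepressor gene, on chromosome 19 (14448150 to 14598051, minus strand), rose in the knockout to 63.2 and 69.6 CPM, against 51.7 and 45.8 CPM with the empty vector. The change was 0.47 on the log2 scale (SE 0.10, edgeR adjusted p = 0.00341), and 97% of the 500 genes nearest in level lay below it. In 3T3 it stood at 13.0 and 12.3 CPM in induced and 12.1 and 12.3 CPM in normal cells, where the groups overlapped and the change of 0.07 (SE 0.11) did not pass (edgeR adjusted p = 0.671).

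The opposite moves of Tle3 and Tle4 shifted the make-up of the Groucho genes in Scid.adh with a small change in their sum. Per kb of exon, Tle3 made up 47.3% and 48.3% of the 4 genes in the knockout, against 65.1% and 64.5% with the empty vector. Tle4 made up 44.6% and 45.4% in the knockout, against 30.7% and 28.6%. These shares depend on the union exon lengths, 11653 bases for Tle3 and 5702 for Tle4. In CPM, without length, the knockout averaged 144 for Tle3 and 66.4 for Tle4. The sum of the 4 genes was 24.8 and 26.9 CPM per kb in the knockout and 29.5 and 28.1 with the empty vector. In 3T3 it was 24.9 and 23.8 CPM per kb in induced and 24.7 and 24.7 in normal cells. With Tcf7 raised, the ratio of Groucho to TCF/LEF transcripts per kb fell to 0.0596 and 0.0559 in induced fibroblasts, against 0.583 and 0.576 in normal ones. In Scid.adh the ratio was 0.0859 and 0.0954 in the knockout, against 0.0540 and 0.0514 with the empty vector.

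**Figure D3:**
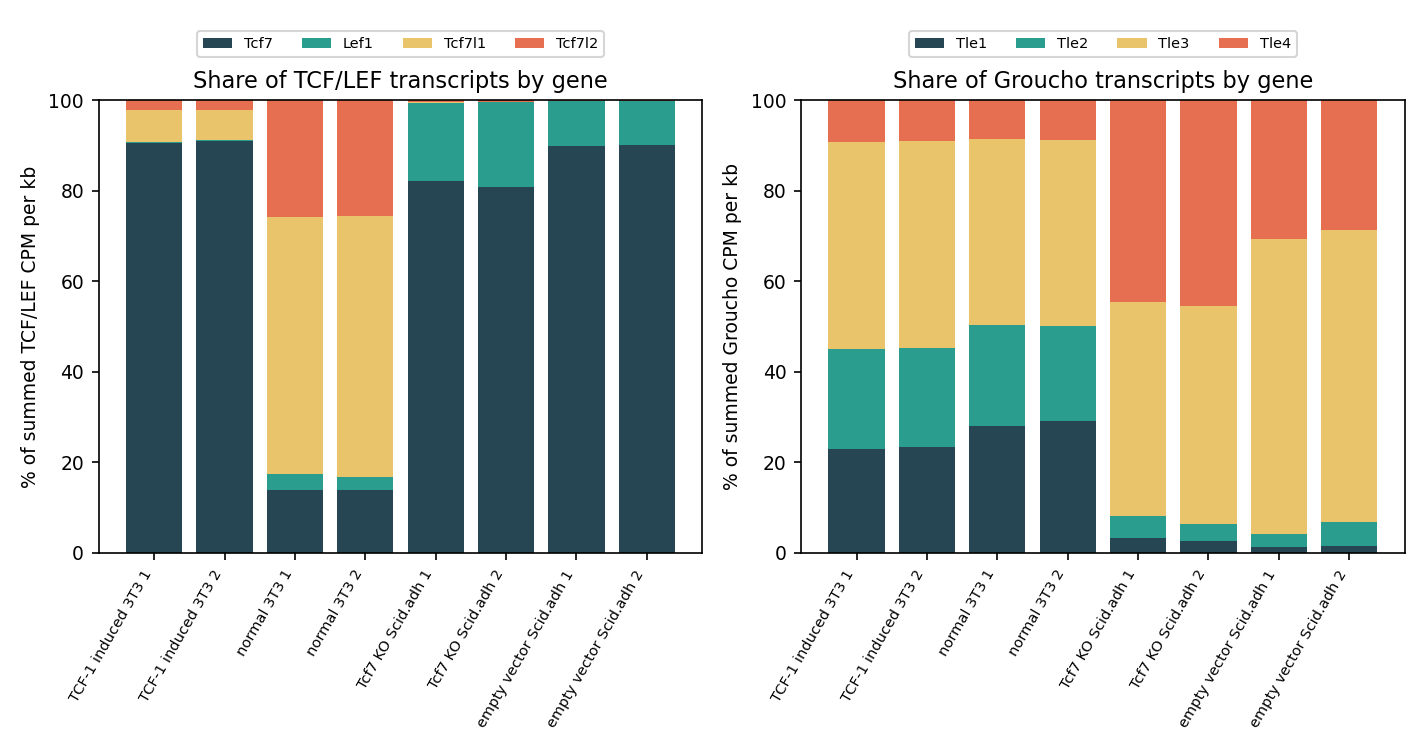
Percentage of the summed CPM per kb of exon (y axis) held by each TCF/LEF gene (left) and each Groucho gene (right) in the 8 libraries (x axis). Tcf7 holds about the same share in induced 3T3 as in empty-vector Scid.adh cells (90.5% to 91.1% and 89.9% to 90.1%), and Tle4 takes a larger share in the knockout (44.6% and 45.4%) than with the empty vector (30.7% and 28.6%).

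Ctnnb1, which encodes beta-catenin, was lower in induced fibroblasts and did not pass in Scid.adh. It lies on the plus strand of chromosome 9 (120929216 to 120960507). It stood at 631 and 624 CPM in induced 3T3 cells, against 719 and 704 CPM in normal cells. The groups did not overlap, and the change was -0.16 on the log2 scale (SE 0.03, edgeR adjusted p = 4.99e-05). Of the 500 genes nearest in level in 3T3, 41.2% passed downward and 28.8% had a lower log2 change than Ctnnb1. The Scid.adh libraries gave 285 and 282 CPM in the knockout and 292 and 280 CPM with the empty vector, and the change of 0.01 (SE 0.06, edgeR adjusted p = 0.902) had no stable sign. Beta-catenin is controlled mainly by destruction of the protein, which transcript counts do not measure. Ctnnb1 shares 759 exon bases with Ulk4 on the opposite strand, which held 1929 and 1671 counts in induced and 2040 and 2307 in normal 3T3 libraries but at most 10 in Scid.adh. Per kb of exon, Ctnnb1 over the TCF/LEF sum was 0.291 and 0.282 in induced and 3.28 and 3.17 in normal 3T3 cells, and 0.190 and 0.193 in knockout and 0.103 and 0.0988 in empty-vector Scid.adh cells.

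**Figure D4:**
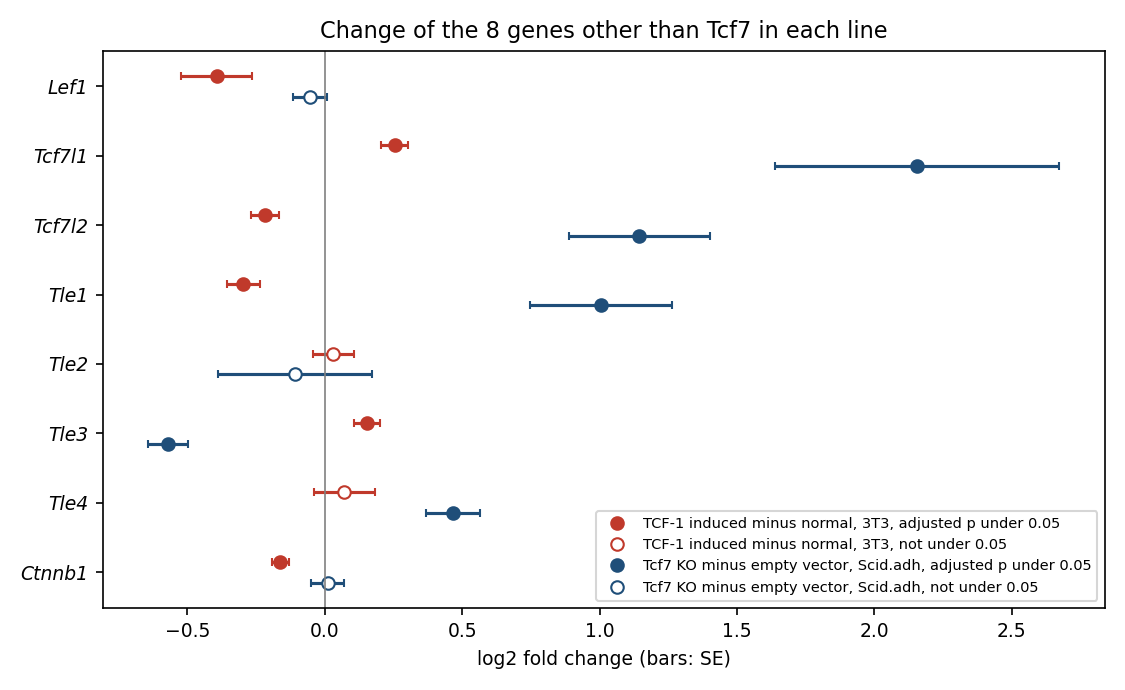
Log2 fold change (x axis, bars show the SE from edgeR) of the 8 genes other than Tcf7, for induced minus normal 3T3 (red) and knockout minus empty-vector Scid.adh (blue); filled points passed an adjusted p under 0.05. Tcf7l2 and Tle1 lie on opposite sides of 0 in the 2 lines with the rise in the knockout, and Tle3 with the fall in the knockout.

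The changes of the 2 lines were compared directly in a fit of all 8 libraries, as the change on induction minus the change on knockout. As these manipulations are opposite, a gene that moves with or against Tcf7 in both lines also gives a difference. Of 15854 genes tested, 30.7% passed, 14.6% with a positive and 16.1% with a negative difference, and so did 6 of the 9 genes, 2 positive and 4 negative. Besides Tcf7 itself (7.10, SE 0.08), these were Tcf7l1 (-1.90, SE 0.46), Tcf7l2 (-1.36, SE 0.22), Tle1 (-1.30, SE 0.23), Tle3 (0.73, SE 0.08) and Tle4 (-0.39, SE 0.15). The largest edgeR adjusted p among them was that of Tle4, 0.0457. Tle4 passed by so little that it was lost in 5 of the 6 other settings run on all 8 libraries. The difference of Tcf7l1 was lost without knockout library 1 (-1.23, edgeR adjusted p = 0.102). Lef1 (-0.34, SE 0.13, edgeR adjusted p = 0.0524) and Ctnnb1 (-0.17, SE 0.07, edgeR adjusted p = 0.0645) did not pass, nor did Tle2 (0.14, SE 0.24, edgeR adjusted p = 0.731).

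Between the control cells of the 2 lines all 9 genes passed, in a comparison in which 85.7% of 15854 tested genes did (38.6% higher, 47.1% lower) and the median gene lay at -0.24 on the log2 scale. Each line had its own gene table, and line and counting cannot be told apart. Higher in empty-vector Scid.adh than in normal 3T3 cells were Tcf7 (log2 fold change 6.38, SE 0.07), Lef1 (5.26, SE 0.08), Tle4 (2.00, SE 0.10) and Tle3 (0.88, SE 0.06). Lower were Tcf7l1 (-7.39, SE 0.18), Tcf7l2 (-4.77, SE 0.12), Tle1 (-4.15, SE 0.13), Tle2 (-2.19, SE 0.15) and Ctnnb1 (-1.32, SE 0.05). Per kb of exon, TCF/LEF transcripts were held mainly by Tcf7 and Lef1 in empty-vector Scid.adh and by Tcf7l1 and Tcf7l2 in normal 3T3 cells, whereas Tle3 was the largest Groucho member in both, at 65.1% and 64.5% in empty-vector Scid.adh and 41.0% and 41.2% in normal 3T3 cells. The largest edgeR adjusted p among the 9 was 6.08e-15, and none of these calls changed in the alternatives run.

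The proximal promoters of the 9 genes were searched for the core of the TCF/LEF motif, CTTTGA or CTTTGT on both strands. The 2 words cannot match at the same position, and every match was counted. RefSeq windows (GRCm38.p6), from 250 bases before to 50 after each annotated start, were matched by symbol for all 9 genes, 16 windows in all. A core lay in 3 of the 16, one each of Lef1, Tcf7l1 and Tcf7l2, whereas 31.2% of all 32851 windows held one. The 4 stretches that follow show the Lef1 window, the one of the 16 with CTTTGA (16% of all windows hold it, and 18.7% CTTTGT), and the first windows of the 3 genes that moved with or against Tcf7 in both lines. Each runs 5′ to 3′ on the gene's strand, with cores in capitals. The Lef1 stretch holds all 250 bases before its internal start. The others end where the outermost annotated start of the gene begins and so hold the first 237 (Tcf7l2), 154 (Tle1) and 210 (Tle3) of those bases.
Lef1, internal start, chr3:131156044-131156293, plus strand: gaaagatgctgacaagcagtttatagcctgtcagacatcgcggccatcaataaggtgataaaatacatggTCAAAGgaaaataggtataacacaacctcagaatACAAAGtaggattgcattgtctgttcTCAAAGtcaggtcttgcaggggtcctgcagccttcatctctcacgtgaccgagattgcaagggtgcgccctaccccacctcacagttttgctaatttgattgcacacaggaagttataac
Tcf7l2, chr19:55741560-55741796, plus strand: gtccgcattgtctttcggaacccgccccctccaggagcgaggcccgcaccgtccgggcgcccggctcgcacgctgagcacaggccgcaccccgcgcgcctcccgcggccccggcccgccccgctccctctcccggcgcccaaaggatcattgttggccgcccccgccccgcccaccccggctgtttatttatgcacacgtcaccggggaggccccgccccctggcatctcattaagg
Tle1, chr4:72200990-72201143, minus strand: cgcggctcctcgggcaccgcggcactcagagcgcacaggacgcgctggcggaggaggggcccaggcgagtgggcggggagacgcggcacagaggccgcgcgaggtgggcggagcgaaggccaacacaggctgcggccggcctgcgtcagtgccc
Tle3, chr9:61372116-61372325, plus strand: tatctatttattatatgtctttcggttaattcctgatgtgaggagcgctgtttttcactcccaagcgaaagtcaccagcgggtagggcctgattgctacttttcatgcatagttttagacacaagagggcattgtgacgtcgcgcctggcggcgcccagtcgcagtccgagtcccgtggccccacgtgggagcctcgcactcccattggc
The Lef1 stretch carries cores that begin 180, 146 and 120 bases before the internal start. No core lies in the printed stretches of Tcf7l2, Tle1 and Tle3; the core of Tcf7l2 lay in the window of a later start. A match is a description of letters and no measured site.

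Around these genes, the rest of the pathway was described by lists. In the beta-catenin destruction complex, Apc and Gsk3b fell and Csnk1a1 rose among 9 tested genes in induced 3T3 cells (median log2 change -0.06, against 0.00 over all genes), 3 of 9 where 36.8% of all genes passed. Apc, the scaffold, averaged 186 ± 0.195 CPM in induced and 243 ± 0.0387 CPM in normal cells (SD, n = 2; log2 fold change -0.37), and the kinase gene Gsk3b 200 ± 12.4 and 260 ± 2.86 CPM (-0.36). In the knockout 1 of 9 passed, where 31.5% of all genes did: Axin2, a scaffold that is itself a Wnt target, averaged 36.8 ± 2.00 CPM in the knockout and 29.0 ± 4.83 CPM with the empty vector (0.37, SE 0.13, edgeR adjusted p = 0.0464).

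Most genes on a list of other regulators of TCF/LEF or beta-catenin (corepressors, inhibitors and modifying enzymes) rose in the fibroblasts. Of 11 tested, 8 rose and 0 fell (Cby1, Nlk and Xiap did not pass), with a median of 0.24, against 18.5% of all genes higher. Whether each member represses or activates in these cells was not tested, so the count is no measure of repression. Of all genes at 50 CPM or more in 3T3, 27.5% were higher, and of those from 10 to 50 CPM, 24.5%. Tle6, a divergent Groucho relative, averaged 17.2 ± 1.48 CPM in induced and 8.815 ± 0.980 CPM in normal cells (log2 fold change 1.00, SE 0.12), and Hipk2, a kinase that phosphorylates TCF/LEF factors, 277 ± 3.10 and 182.5 ± 0.0732 CPM (0.62, SE 0.04). The short Groucho relative Tle5 (listed as Aes), Ctnnbip1, Ctbp1, Ctbp2, Hdac1 and Hdac2 were the others. In the knockout Ctnnbip1 and Hipk2 rose and Hdac1 fell (97.0 ± 7.49 CPM in the knockout and 128 ± 7.32 CPM with the empty vector, -0.38), with a median of 0.02 over 11, where 31.5% of all genes passed.

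Coactivators of beta-catenin changed in both directions. In 3T3, Bcl9 (0.23) and Pygo2 (0.33) rose and Pygo1 and Crebbp fell among 7 tested, where 36.8% of all genes passed. In the knockout Bcl9, the adaptor between beta-catenin and Pygo proteins, rose (40.6 ± 2.57 CPM in the knockout and 25.3 ± 0.890 CPM with the empty vector, 0.71, SE 0.11), while Med12 (-0.59, SE 0.08), Bcl9l and Crebbp fell among 6 tested, with a median of -0.30. Of all genes tested in Scid.adh 31.5% passed, and of those at 50 CPM or more 27.9% passed downward. Of 4 junction partners tested in 3T3, Jup, the plakoglobin relative of beta-catenin, rose (0.47, SE 0.05), where 36.8% of all genes passed. Cdh2, Ctnna1 and Ctnnd1 did not pass there, nor did Cdh1, the 1 gene tested in Scid.adh. Of the Wnt targets, Ccnd1 (156 ± 4.28 CPM in induced and 73.25 ± 1.34 CPM in normal cells, 1.11) and Sox9 rose and Myc (-0.71), Znrf3 and Rnf43 fell among 9 tested in 3T3, where 36.8% of all genes passed. Myc also fell in the knockout (347.5 ± 11.3 CPM in the knockout and 487 ± 6.36 CPM with the empty vector, -0.46), beside the rise of Axin2, among 4 tested, where 31.5% of all genes passed.

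Genes with the most similar profile were taken by the root-mean-square difference of mean-centred log2 CPM over the 8 libraries, among 15854 genes with unnamed gene models passed over. The nearest to Tle3 were Polr1a (0.02) and Cherp (0.05), to Ctnnb1 Rnf146 (0.04) and Rraga (0.04), to Tle1 Map4k5 (0.06) and Slc22a23 (0.12), and to Tle4 E2f7 (0.09) and Cenpl (0.09). Nuggc and Rasal1 were nearest to Lef1 (0.15 each), Fam98c (0.12) and Plxdc1 (0.13) to Tle2, and Cdc42bpb (0.19) and Cep170b (0.20) to Tcf7l1. Tcf7 stood most apart, with Atp2b4 (0.77) and Slfn8 (0.97) as its nearest genes.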

How the data were processed

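The authors deposited gene counts, 1 file per library, and the counts were used as deposited. Per the labels' protocols, total RNA (RNeasy Plus Micro Kit) went into stranded low-input libraries (SMARTer Pico), sequenced paired-end. STAR 2.5.0a, HTSeq 0.6.1 and GRCm38 are named, per the submitters' processing notes. Annotation release, strand setting and the counter used for 3T3: not given in the sources used here. There were 53465 genes for 3T3 and 31053 for Scid.adh, and no column belonged to another sample. Rows for unassigned reads, in the Scid.adh files alone, were left out of sizes and tests; of all their reads 21.3% to 25.8% lay outside genes and 2.20% to 2.44% were ambiguous. Symbols, positions and exon lengths came from GENCODE M21, in which 105 and 42 genes of the tables were not found.

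After filterByExpr and TMM scaling, each line had its own robust edgeR quasi-likelihood fit, Benjamini-Hochberg adjusted over all tested genes (edgeR 4.0.16, limma 3.58.1, DESeq2 1.42.0, R 4.3.3); the SE is the log2 fold change over the square root of F. Fold changes are induced minus normal, knockout minus empty vector and empty-vector Scid.adh minus normal 3T3. The last, and the difference between the changes, came from a fit of 8 libraries. The steps were tested on simulated data. The members and lists were chosen with earlier results of these data known. Named genes are the 9, up to 2 called genes per list and line with the largest change at a mean of at least 5 CPM, and the 2 nearest profiles per member (those of Tcf7l2 are not reported here); other list genes were named to fill a count. Alternatives were upper-quartile factors, DESeq2 size factors, limma-voom, the DESeq2 test, a mean of at least 1 CPM, no filter, a replicate block, a joint fit and each library left out. Python 3.11.15, pandas 2.3.3, SciPy 1.17.1 and matplotlib 3.10.9 made tables and figures.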

Additional observations from a re-analysis of the deposited data

Results flagged for a closer look

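For 6 of the 9 genes the change on induction in 3T3 differed from the change on knockout in Scid.adh in a test of the difference itself (edgeR, adjusted p under 0.05), given as induction minus knockout on the log2 scale. Of all 15854 genes tested, 30.7% passed. The values of the 6 genes were 7.10 for Tcf7, the manipulated gene, -1.90 for Tcf7l1, -1.36 for Tcf7l2, -1.30 for Tle1, 0.73 for Tle3 and -0.39 for Tle4. The call of Tle4 was lost in most other settings run on all 8 libraries. Induction and knockout are opposite manipulations in different cell types, so the difference is one of both. That of Tcf7 follows from the design. A gene that moves with Tcf7 in both lines, as Tle3 did, or against it, as Tcf7l2 and Tle1 did, also gives a difference. A call here is therefore no sign that the lines disagree.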

How the results depend on the processing

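With 2 libraries a group, low counts limited Tcf7l1, Tcf7l2, Tle1 and Tle2 in Scid.adh. All 117 alternative values of the 9 genes between the control cells of the 2 lines kept direction and call, as did 99 of 108 in 3T3, 98 of 108 in Scid.adh and 106 of 126 for the difference between the changes. The cause of the other shifts was not tested. In DESeq2, genes called in 3T3 numbered 1977 higher and 2035 lower (3361 and 3332 in edgeR), in Scid.adh 880 and 1080 (1861 and 1899), and 1550 were lower for the difference (2551). Upper-quartile factors gave 2455 higher and 1215 lower in Scid.adh.

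In 3T3, Lef1 (-0.39) and Tle3 (0.15) lost their calls in DESeq2, and Tle3 (0.13) in the joint fit. In Scid.adh, Lef1 turned to 0.026 with upper-quartile factors, Ctnnb1 to -0.044 without a filter and to -0.012 in the joint fit, and Tle1 (1.01) lost its call in DESeq2. For the difference, Tle4 lost its call with DESeq2 size factors (-0.34), no filter (-0.37), DESeq2 (-0.35), limma-voom (-0.39) and the replicate block (-0.39). Lef1 passed with upper-quartile factors (-0.39), and Ctnnb1 with those (-0.22) and limma-voom (-0.17).

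Leaving out each library in turn gave ranges in 3T3 of -0.54 to -0.23 for Lef1, -0.0155 to 0.076 for Tle2 and 0.12 to 0.19 for Tle3. In Scid.adh they were -0.10 to -0.015 for Lef1, 1.51 to 2.61 for Tcf7l1, 0.90 to 1.10 for Tle1, -0.49 to 0.36 for Tle2 and -0.026 to 0.026 for Ctnnb1, with 1059 to 1911 genes higher and 1162 to 2321 lower. The lowest counts, 1059 and 1162, came without empty-vector library 1, and 1180 and 1198 without empty-vector library 2. For the difference they were -0.48 to -0.17 for Lef1, -2.33 to -1.23 for Tcf7l1, -0.31 to 0.54 for Tle2, -0.45 to -0.28 for Tle4 and -0.18 to -0.11 for Ctnnb1.

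Same-numbered libraries showed no shared shift: their deviations correlated at 0.03 in 3T3 and -0.00 in Scid.adh across genes. Whether they were made or handled together cannot be told from this. The replicate block gave 3633 higher and 3577 lower in 3T3 and 2028 and 2010 in Scid.adh, and for the difference 2280 and 2505.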
